A study of Mus musculus with 5 samples.

Results

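The 10 genes described here are Gvin1, Gvin2, Ifit1, Ifit1bl1, Isg15, Rsad2, Cmpk2, Gbp2, Ddx60 and Irf7. All belong to the interferon response or to the family of very large interferon-inducible GTPases. They are 10 of the 22042 genes in a table of sorted intestinal epithelial cells and 10 of the 27998 genes in a droplet matrix of lineage-traced intestinal cells. The genes were chosen by measured values, the normalized counts of Gvin1 and of the interferon genes in fasted and refed mice of these same libraries, and the question was whether its change was shared by other interferon genes. The values of the 10 genes in these libraries are therefore given as a description with no test, and p-values are given only for genes outside these 10. The lists of those other genes were also drawn up with earlier results of these data known, so their p-values and counts are not independent of that choice. Where it is said which of the 10 passed the threshold of the fit over all genes, this restates how they were chosen and supports nothing.

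Interferons are secreted proteins that warn cells of infection. Type I and type III interferons act through receptors, Janus kinases and transcription factors such as Stat2 and Irf9, which act at the interferon-stimulated response element (ISRE) near their target genes, whereas interferon gamma acts mainly at GAS elements. The epithelium of the small intestine responds well to the type III interferons, and it holds intraepithelial lymphocytes that can make interferon gamma. Among the 10 genes, Irf7 encodes a transcription factor that amplifies the response. Ifit1 binds foreign RNA, and Ifit1bl1 is its relative. Isg15 is a ubiquitin-like protein that is attached to other proteins. Rsad2, known as viperin, makes a nucleotide that stops viral RNA synthesis, and its neighbor Cmpk2 is a nucleotide kinase. Ddx60 is a helicase-like protein linked to the sensing of viral RNA. Gbp2 is a guanylate-binding protein that acts on the membranes around intracellular pathogens. Gvin1 and Gvin2 encode the very large GTPases, whose roles are less well known.

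The bulk table held 12 libraries from 6 mice, in 4 groups of 3 libraries. The mice were C57Bl/6J, 6 to 8 weeks old, with the genotype Cck-Cre; R26-LSL-tdTomato, and every mouse gave a library of tdTomato+ cells (CCK+) and a library of tdTomato- cells (CCK-) from the small intestine epithelium. Mice A, B and F were fasted overnight, and mice C, D and E were fasted and then given Ensure, a liquid diet. The reporter stays on in any cell whose history includes Cck-Cre activity, the driver is also active in enteric neurons, and the CCK- libraries are the remaining cells of the same epithelium, not one cell type. The titles given to the 4 bulk samples all read CCK+, so the groups were taken from the cell type labels. All values in the bulk table are normalized counts made by the authors. The libraries summed to between 7061155 and 9868241 normalized counts in CCK+ cells and between 9900561 and 11371114 in CCK- cells. The droplet library held UMI counts of tdTomato+ cells pooled from 4 Neurog3-Cre; R26-LSL-tdTomato mice aged 6 weeks, in which the descendants of Neurog3+ progenitors are labeled. The largest group of these cells expressed a goblet cell gene, as described with the droplet values.

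The sort was checked against marker genes. Cck was between 14837 and 32592 normalized counts in CCK+ libraries and between 27.6 and 86.0 in CCK- libraries. The CCK+ libraries also carried 8 enterocyte markers, which summed to 254071.7 to 422135.5 normalized counts in fasted and 165978.6 to 271533.9 in refed mice, against 454211.8 to 638187.1 and 454394.6 to 485028.2 in CCK- libraries. The 11 measured markers of T cells and intraepithelial lymphocytes summed to 5353.7 to 11555.6 in CCK+ and 597 to 1350.0 in CCK- libraries. Myeloid markers summed to 390 to 1702.5 in CCK+ and 177 to 276 in CCK- libraries, where C1qa was at 0 in every library.

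Gvin1 (ENSMUSG00000045868) and Gvin2 (ENSMUSG00000078606, also named Gm4070) lie on chromosome 7 of the mouse genome build GRCm38, at chr7:106156535-106215340 and chr7:105895118-105953967. Their longest annotated transcripts are near-identical copies. Each is 8795 bases long with 2 exons and a coding length of 7281 bases, and they differ at 3 bases, all within the coding sequence, so that 99.97% of positions are the same. The differences, counted from 1 at the first base of the start codon with the Gvin1 base first, are G1805T, G4904A and C7075T. The longest run without a difference is 3098 bases, and 99.7% of all 31-base words of Gvin1 also occur in the transcripts of other genes. Over all annotated transcripts, 99% of the words of Gvin1 occur in Gvin2 and 95.8% of those of Gvin2 in Gvin1. Transcripts of the 2 genes other than this pair thus hold further differences. The 3 sites are shown because they are the only bases at which a read can be assigned to one gene of this pair of transcripts, with the base that differs in capitals and both genes read on the minus strand.
Gvin1, G1805T, chr7:106163427-106163486: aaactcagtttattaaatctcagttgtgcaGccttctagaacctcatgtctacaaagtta
Gvin2, G1805T, chr7:105902010-105902069: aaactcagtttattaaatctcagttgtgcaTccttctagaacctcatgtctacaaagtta
Gvin1, G4904A, chr7:106160328-106160387: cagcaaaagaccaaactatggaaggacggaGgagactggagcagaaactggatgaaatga
Gvin2, G4904A, chr7:105898911-105898970: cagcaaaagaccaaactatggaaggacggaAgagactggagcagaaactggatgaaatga
Gvin1, C7075T, chr7:106158157-106158216: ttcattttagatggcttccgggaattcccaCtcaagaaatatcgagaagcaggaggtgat
Gvin2, C7075T, chr7:105896740-105896799: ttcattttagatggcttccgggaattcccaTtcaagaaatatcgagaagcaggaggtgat

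The other members were searched for interferon motifs in their RefSeq promoters (GRCm38.p6), which run from 250 bases before to 50 bases after the start of the gene. The motifs were the ISRE core, TTTC and again TTTC with any 2 bases between them, and the GAS motif TTCNNNGAA, on both strands. The ISRE core was in 3.44% of 32851 promoters and the GAS motif in 8.3%. The 8 members with a promoter entry were the 8 other than Gvin1 and Gvin2, and 6 of them held an ISRE core. Ifit1 held 2, Ddx60 held 2, Isg15 held 3 that overlap on the reverse strand, and Ifit1bl1, Rsad2 and Gbp2 held 1 each. Cmpk2 and Irf7 held none in this window, and no member held the GAS motif. The windows of 60 bases below show how these genes share the motif, in the direction of transcription with the ISRE core in capitals.
Ifit1, chr19:34640769-34640828, plus strand: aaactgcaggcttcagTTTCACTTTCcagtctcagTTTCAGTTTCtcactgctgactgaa
Ifit1bl1, chr19:34602038-34602097, minus strand: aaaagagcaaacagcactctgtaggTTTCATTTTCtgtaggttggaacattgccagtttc
Isg15, chr4:156200856-156200915, minus strand: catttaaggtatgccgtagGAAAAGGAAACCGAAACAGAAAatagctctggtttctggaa
Rsad2, chr12:26456538-26456597, minus strand: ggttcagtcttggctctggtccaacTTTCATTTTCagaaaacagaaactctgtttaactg
Gbp2, chr3:142620579-142620638, plus strand: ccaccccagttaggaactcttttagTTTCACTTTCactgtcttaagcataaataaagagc
Ddx60, chr8:61928026-61928085, plus strand: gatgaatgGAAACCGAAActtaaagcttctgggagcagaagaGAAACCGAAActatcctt
Irf7 lies at chr7:141263183-141266499 and Cmpk2 at chr12:26469117-26479837, next to Rsad2 at chr12:26442743-26456452. Of the genes in the pathway lists outside the 10, the ISRE core was in 18 of 42 antiviral effectors with a promoter entry (42.9%), in 9 of 10 guanylate-binding proteins and immunity-related GTPases, in 2 of 7 transcription factors and in 1 of 10 receptors, kinases and inhibitors.

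Gvin1 was higher in every refed library than in every fasted library of the same kind of cells. In CCK- cells of fasted mice it was listed at 0 in all 3 libraries, and in CCK- cells of refed mice it was 219, 196 and 159 normalized counts in mice C, D and E (mean 191 ± 30.2, SD, n = 3). In CCK+ cells it was 107, 320 and 384 in fasted mice A, B and F (mean 270 ± 145) and 476, 468 and 499 in refed mice C, D and E (mean 481 ± 16). The refed libraries thus lay above the fasted libraries in both kinds of cells. In CCK+ cells the log2 difference, on the scale of log2(normalized count + 1), was 1.02 (SE 0.38). It rested largely on mouse A, and was 0.45 when the CCK+ library of that mouse was left out. No fold change is given for CCK- cells, where the fasted group was at 0. In bulk libraries fewer cells of a type and less RNA per cell cannot be told apart.

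Gvin2, with nearly the same sequence, did not have this pattern. It was 59.6, 24.9 and 49.6 normalized counts in CCK+ cells of fasted mice and 81.8, 44.5 and 101 in refed mice (means 44.7 ± 17.8 and 75.8 ± 28.8). In CCK- cells it was 31.1, 25.9 and 57.4 in fasted and 25.9, 28.8 and 38.7 in refed mice (means 38.1 ± 16.9 and 31.1 ± 6.69). The fasted and refed values of Gvin2 overlapped in both kinds of cells, and the log2 differences were 0.76 (SE 0.43) in CCK+ and -0.22 (SE 0.43) in CCK- cells. In the same 3 fasted CCK- libraries, the copy with 3 different bases was at 0 and the other copy was not. Reads that match both copies were divided between them by estimation, so the separate values of Gvin1 and Gvin2 depend on that division.

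The split of reads between the copies was examined by adding their normalized counts. The sum of Gvin1 and Gvin2 was 166, 345 and 434 in fasted and 558, 513 and 600 in refed CCK+ libraries (means 315 ± 136 and 557 ± 43.7), and 31.1, 25.9 and 57.4 in fasted and 245, 225 and 198 in refed CCK- libraries (means 38.1 ± 16.9 and 222 ± 23.7). The refed libraries stayed above the fasted ones in both kinds of cells. The log2 difference of the sum was 0.93 (SE 0.33) in CCK+ and 2.59 (SE 0.33) in CCK- cells. Gvin1 made up 64.1 to 92.8% of the sum in CCK+ libraries and 80.4 to 89.4% in refed CCK- libraries.

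Gvin1 also shares sequence with more distant copies. There were 9 other genes in the table with at least 100 of its 31-base words, Gvin2 among them, and the 10 genes together summed to 2967.5, 3957.3 and 5225.4 normalized counts in fasted and 5319.9, 4901.9 and 5869.3 in refed CCK+ libraries. In CCK- libraries the sums were 1978.6, 2151.3 and 2996.8 in fasted and 4119.7, 3887.5 and 3241.4 in refed mice. The refed sums overlapped the fasted sums in CCK+ cells and lay above them in CCK- cells, with ratios of the means of 1.32 and 1.58. Gvin1 was 3.59 to 9.55% of this total in CCK+ libraries and at most 5.31% in CCK- libraries, and the log2 difference of the total was 0.44 (SE 0.21) in CCK+ and 0.67 (SE 0.21) in CCK- cells. Without Gvin1 the ratios of the means were 1.29 and 1.5.

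**Figure D1:**
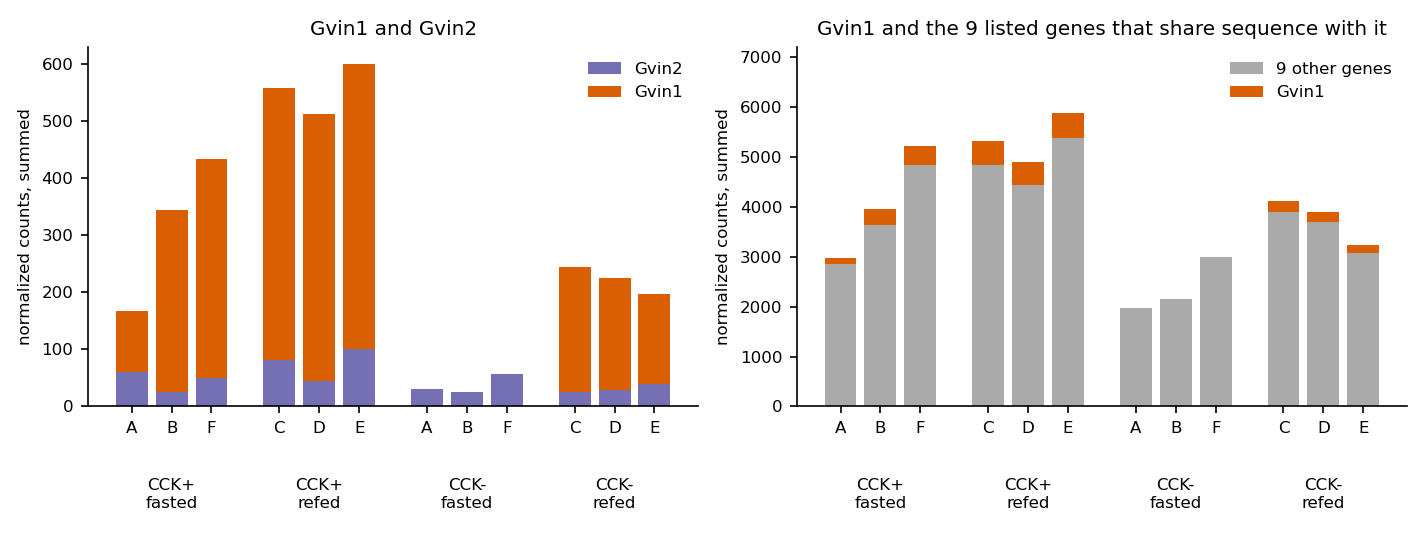
Stacked bars of normalized counts (y axis) in each of the 12 libraries (x axis, 1 bar per mouse, in 4 groups of 3). Left, Gvin1 on top of Gvin2, where the bars of the fasted CCK- group hold Gvin2 alone; right, Gvin1 on top of the sum of the 9 genes that share sequence with it, where Gvin1 is at most 9.55% of any bar.

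One of these genes, 9130208D14Rik, shares 22.1% of the 31-base words of Gvin1 and was higher in refed mice in both kinds of cells. Its mean rose from 950 ± 146 to 1732.1 ± 218 normalized counts in CCK+ cells (log2 difference 0.87, SE 0.17, adjusted p = 0.0167 by limma) and from 633 ± 109 to 1241.2 ± 121 in CCK- cells (0.98, SE 0.17, adjusted p = 0.0133). It was chosen after its values were seen. The call in CCK+ cells was lost without the CCK+ fasted library of mouse B or the CCK+ refed library of mouse D or E, and the call in CCK- cells without the CCK- library of mouse A, B, C or D (highest adjusted p = 0.0921 and 0.0896). Fitted with the 6 libraries of the comparison alone, the adjusted p was 0.136 in CCK+ and 0.108 in CCK- cells. Gm8979, the copy with the most reads, was 2266.3 ± 821 in fasted and 2540.9 ± 232 in refed CCK+ cells (adjusted p = 0.696), and 1454.4 ± 384 and 2023.9 ± 314 in CCK- cells (adjusted p = 0.438).

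None of the 8 other genes had the pattern of Gvin1. In CCK+ cells 6 of them had a negative log2 difference between refed and fasted mice, and Rsad2 and Gbp2 had a positive one. In that comparison 2.55% of all 22042 genes were called at an adjusted p under 0.05 by limma (1.31% higher and 1.23% lower in refed mice), and none of the 10 genes was among them. The 3 refed libraries lay below the 3 fasted libraries for Ddx60, Irf7 and Ifit1bl1, as they did for 8.61% of all genes, and above them for Gvin1, as for 10.8% of all genes. In CCK- cells 1.23% of genes were called (0.708% higher and 0.526% lower), and of the 10 genes only Gvin1, which was chosen for this difference. There the 3 refed libraries lay above the 3 fasted ones for Gvin1 alone of the 10 genes, as for 8.05% of all genes, and below them for 0 of the 10 genes, as for 8.18%.

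**Figure D2:**
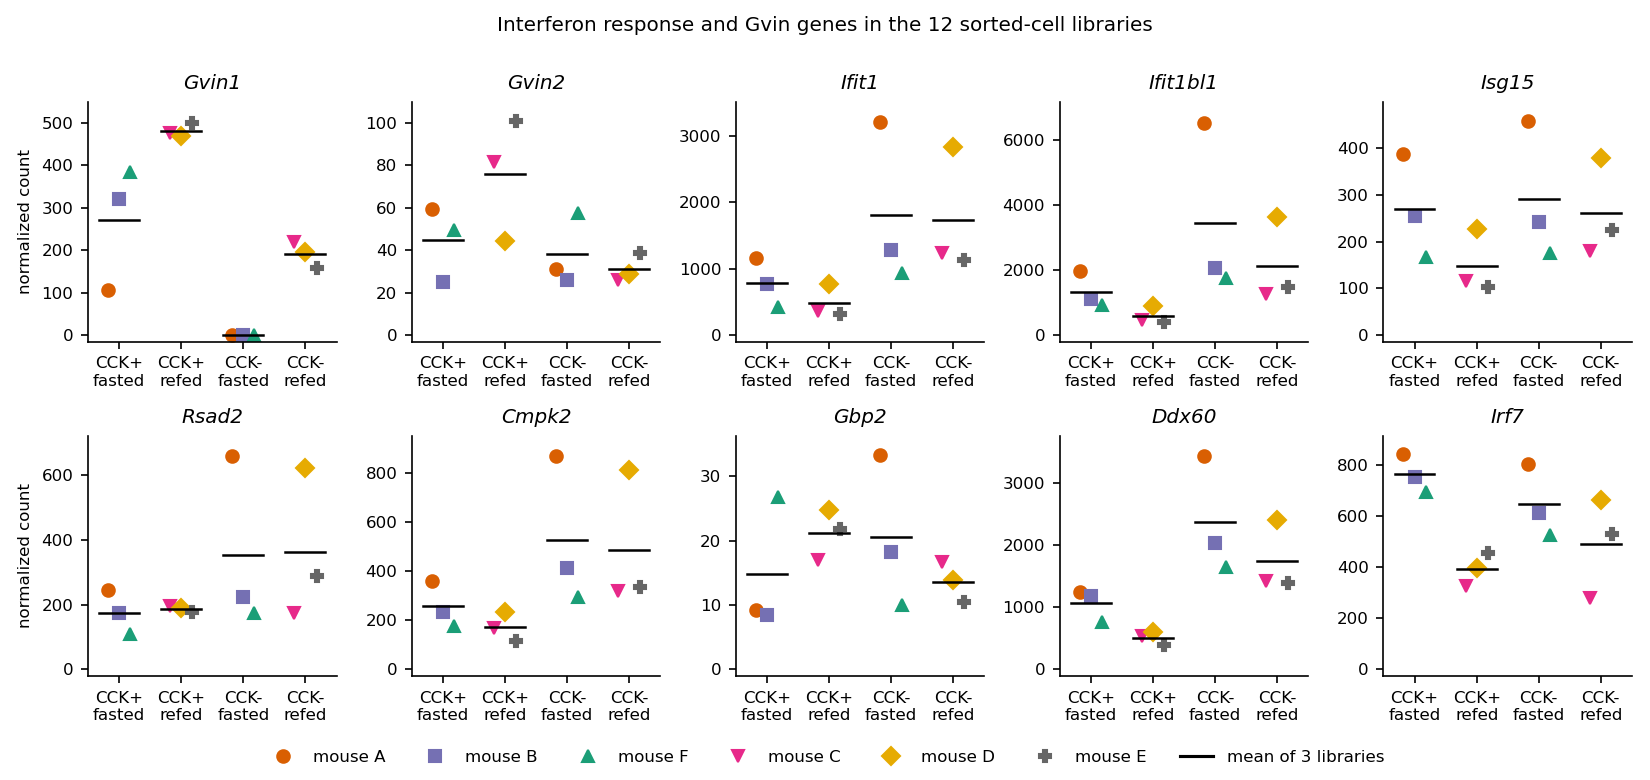
Normalized counts (y axis, own scale for each gene) of the 10 genes in the 12 libraries, by group (x axis), with 1 symbol per mouse and a line at the mean of the 3 libraries of a group. Gvin1 is at 0 in fasted CCK- libraries and at 159 to 219 in refed ones, while mouse A among the fasted and mouse D among the refed mice carry the highest CCK- values of most other genes.

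Irf7, the transcription factor of the set, was 842, 753 and 692 normalized counts in CCK+ cells of fasted mice A, B and F and 326, 395 and 456 in refed mice C, D and E (means 762 ± 75.6 and 393 ± 64.8). The refed values did not overlap the fasted ones, and the log2 difference was -0.96 (SE 0.27). In CCK- cells Irf7 was 804, 610 and 524 in fasted and 280, 663 and 528 in refed mice, values that overlapped (log2 difference -0.46, SE 0.27). That last difference rested on mouse C and was -0.10 without its CCK- library.

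The putative RNA sensor Ddx60 was 1244.4, 1183.1 and 762 in fasted and 544, 596 and 384 in refed CCK+ libraries (means 1063.1 ± 263 and 508 ± 111; log2 difference -1.06, SE 0.29). In CCK- libraries it was higher and more variable, at 3428.3, 2026.2 and 1643.6 in fasted and 1428.9, 2406.1 and 1382.2 in refed mice, and the groups overlapped (-0.42, SE 0.29).

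Ifit1bl1 was 1986.3, 1107.9 and 932 in fasted and 458, 905 and 391 in refed CCK+ libraries (log2 difference -1.22, SE 0.50), just apart. In CCK- libraries it was 6541.6, 2055.7 and 1773.4 in fasted and 1255.3, 3638.9 and 1481.1 in refed mice (-0.61, SE 0.50). Ifit1 was 1166.1, 764 and 430 in fasted and 361, 767 and 311 in refed CCK+ libraries, and 3201.0, 1285.2 and 942 in fasted and 1242.9, 2835.8 and 1134.6 in refed CCK- libraries. Both sets of Ifit1 values overlapped, with log2 differences of -0.72 and 0.02 (SE 0.49 for each). Of the 31-base words of Ifit1bl1, 19.3% occur in other genes, 18.7% in Ifit1bl2, and 10.5% of those of Ifit1, so that some of their reads could be split between these genes.

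Isg15 was 387, 255 and 167 in fasted and 115, 227 and 102 in refed CCK+ libraries (log2 difference -0.88, SE 0.41), with the value of mouse D inside the fasted range. In CCK- libraries it was 458, 242 and 175 in fasted and 180, 378 and 225 in refed mice (-0.11, SE 0.41). The neighbors Rsad2 and Cmpk2 differed little. Rsad2 was 244, 173 and 108 in fasted and 195, 189 and 178 in refed CCK+ libraries (0.17, SE 0.48), and Cmpk2 was 361, 232 and 176 against 167, 232 and 117 (-0.56, SE 0.42). In CCK- libraries Rsad2 was 659, 224 and 175 in fasted and 173, 623 and 287 in refed mice, and Cmpk2 was 869, 414 and 295 against 318, 811 and 334. Each of these 4 sets overlapped, with log2 differences in CCK- cells of 0.08 and -0.10.

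Gbp2, a GTPase of another family than Gvin1, was low in all libraries. It was 9.15, 8.5 and 26.8 normalized counts in fasted and 17, 24.7 and 21.8 in refed CCK+ libraries, and 33.3, 18.2 and 10 in fasted and 16.6, 13.9 and 10.4 in refed CCK- libraries. Its log2 differences were 0.66 and -0.42 (SE 0.55 for each), and the groups overlapped. Among the 10 genes, Gvin1 was thus the only one whose refed values lay above its fasted values in CCK+ cells.

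The rest of the pathway was examined through lists of genes by role, with the 10 genes left out of every count. In CCK+ cells none of 57 measured antiviral effectors was called higher in refed mice and 5 were called lower, against 1.23% of all genes called lower. These were Apol9a, an apolipoprotein L, Oas3, a 2'-5' oligoadenylate synthetase, Parp12, a poly-ADP-ribose polymerase family member, and Uba7 and Ube2l6, the activating and conjugating enzymes for Isg15. Apol9a fell from 1053.0 ± 196 to 417 ± 56.6 normalized counts (log2 difference -1.33, SE 0.24, adjusted p = 0.0122), Oas3 from 1322.7 ± 63.2 to 574 ± 164 (-1.25, SE 0.25, adjusted p = 0.0186) and Parp12 from 859 ± 175 to 380 ± 80.2 (-1.18, SE 0.23, adjusted p = 0.0156). Ube2l6 fell from 409 ± 70.9 to 190 ± 55.5 (-1.14, SE 0.23, adjusted p = 0.0193) and Uba7 from 703 ± 73.4 to 357 ± 65.7 (-0.99, SE 0.19, adjusted p = 0.0156). Uba7 is named as the last of the 5 and fell outside the rule for named genes.

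Most antiviral effectors leaned the same way without passing the test. Of the 57, 51 had a negative log2 difference (89.5%, against 47.5% of all genes), and the median was -0.45 (0.01 over all genes). In 23 the 3 refed libraries lay below the 3 fasted ones, as they did for 8.61% of all genes. Among 12 receptors, kinases and feedback inhibitors all 12 differences were negative, with a median of -0.61, and 2 genes were called lower. Socs3, a feedback inhibitor of cytokine signaling, fell from 403 ± 97.1 to 186 ± 37.8 (log2 difference -1.10, SE 0.23, adjusted p = 0.0236), and Ifngr2, a chain of the interferon gamma receptor, from 1186.6 ± 172 to 675 ± 123 (-0.82, SE 0.17, adjusted p = 0.0191). Of 15 guanylate-binding proteins and immunity-related GTPases, 11 transcription factors, 6 ligands and 21 class I antigen presentation and interferon gamma target genes, limma called 0 in either direction. At an unadjusted p under 0.05 these lists held 1, 2, 1 and 7 genes lower in refed mice and 0 higher. The ligands were interferons and Il18, a cytokine that is not an interferon. Il18 had a mean of 224 normalized counts, but the interferons only 0.142 to 6.06, too low for the lack of calls to be informative.

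These calls were few and rested on several libraries. With the 6 CCK+ libraries alone limma called 0 of the 57 antiviral effectors and 0 of the 12 receptors, kinases and inhibitors, against 21 and 7 lower at an unadjusted p under 0.05. Without the CCK+ library of mouse B, F, D or E in turn, 0 antiviral effectors were called (15, 20, 19 and 12 were lower at an unadjusted p under 0.05), whereas the median of the list stayed between -0.41 and -0.56 in these 4 fits. Of the 12 receptors, kinases and inhibitors, 0 were called without the CCK+ library of mouse F, D or E, 1 without the CCK+ library of mouse B or C or the CCK- library of mouse D, and 3 without the CCK+ library of mouse A. Enterocyte markers also moved, with sums of 254071.7 to 422135.5 in fasted and 165978.6 to 271533.9 in refed CCK+ libraries, and markers of enteroendocrine cells summed to 93516.0 to 205621.5 in fasted and 234150.1 to 299537.6 in refed CCK+ libraries. Their part in the lower values was not tested.

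In CCK- cells limma called 0 genes of these 6 lists in either direction. At an unadjusted p under 0.05, 3 antiviral effectors were lower and 2 higher, and 4 receptors, kinases and inhibitors were lower, and over all 6 lists 13 genes were lower and 5 higher. The median log2 difference was -0.20 for the antiviral effectors and -0.36 for the receptors, kinases and inhibitors, against 0.00 over all genes. The lowest adjusted p over the 6 lists was 0.0536. The median of the antiviral effectors rested on mouse A and was 0.07 without its CCK- library.

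**Figure D3:**
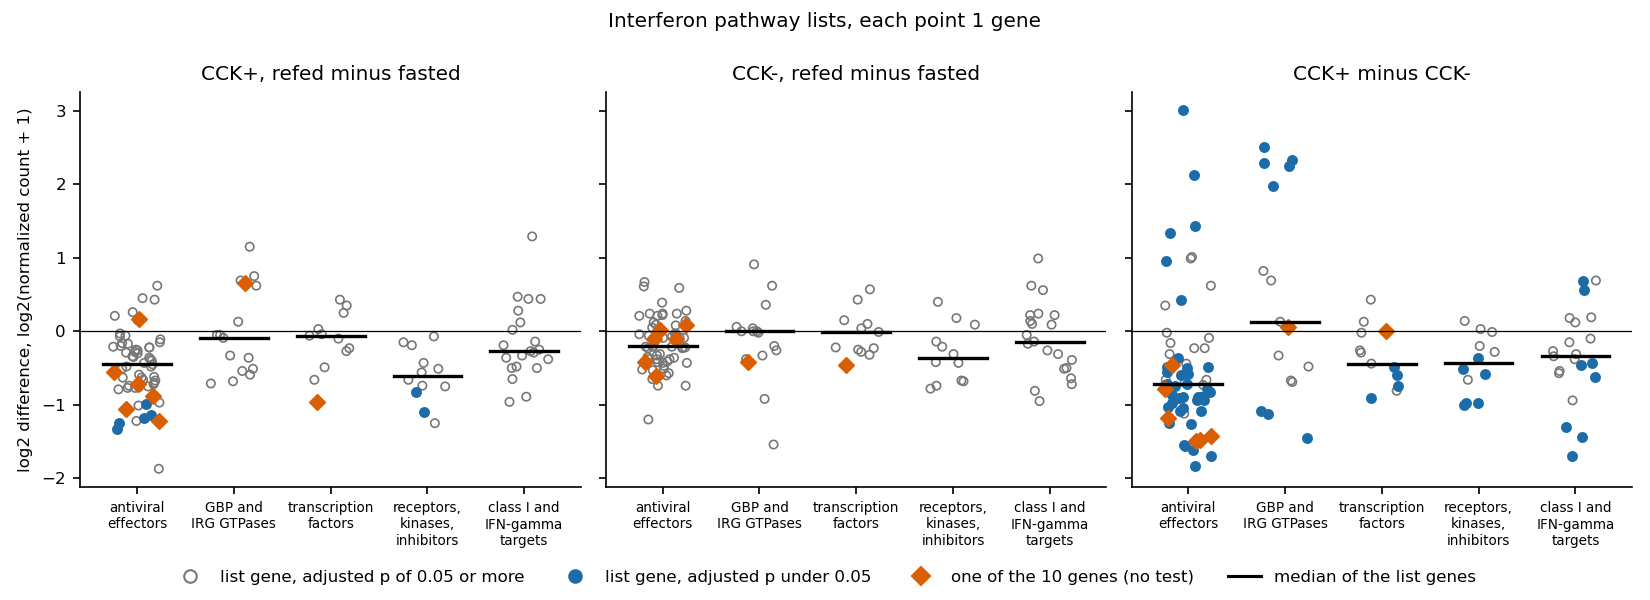
Log2 differences on the scale of log2(normalized count + 1) (y axis) of single genes in 5 pathway lists (x axis) for refed minus fasted in CCK+ cells (left), refed minus fasted in CCK- cells (middle) and CCK+ minus CCK- cells (right). Filled circles are list genes at an adjusted p under 0.05 by limma, diamonds are 8 of the 10 genes (no test), and lines are medians of the list genes without the 10, which for antiviral effectors are -0.45, -0.20 and -0.72.

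The difference between refed and fasted mice was unequal in CCK+ and CCK- cells for 1 of 22042 genes by limma (0.00454%; 1378 genes at an unadjusted p under 0.05), and this gene was Gvin1. It had been chosen from these same values, so this is a description and not a test. When Gvin1 and Gvin2 were added together as 1 gene, 0 genes were called (1378 at an unadjusted p under 0.05), and the difference of the 2 log2 differences of the sum was -1.66 (SE 0.46). With all 10 copies added it was -0.24 (SE 0.30). The call of an unequal change was thus made for Gvin1 as a row of its own and not for the sums that contain it.

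The 8 interferon genes other than Gvin1 and Gvin2 differed among the mice of a group in a shared order. Among the fasted mice, mouse A had the highest value of 7 of the 8 genes in CCK+ cells and of 8 of 8 in CCK- cells, and mouse F had the lowest of 7 and of 8. Among the refed mice, mouse D had the highest value of 6 of 8 genes in CCK+ and of 7 of 8 in CCK- cells. Over 13517 genes with a mean of at least 10 normalized counts, mouse A was the highest for 33.8% in CCK+ and 27.1% in CCK- cells, and mouse D for 30.9% and 30.5%. The median deviation of the 8 genes from their group mean was 0.85 (log2) for mouse A and 0.72 for mouse D in CCK- cells, and 0.56 and 0.37 in CCK+ cells. In fasted mice 7 of the 8 genes were highest in the same mouse in both kinds of cells, and in refed mice 5 of 8, against 41.2% and 38.5% of all genes.

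**Figure D4:**
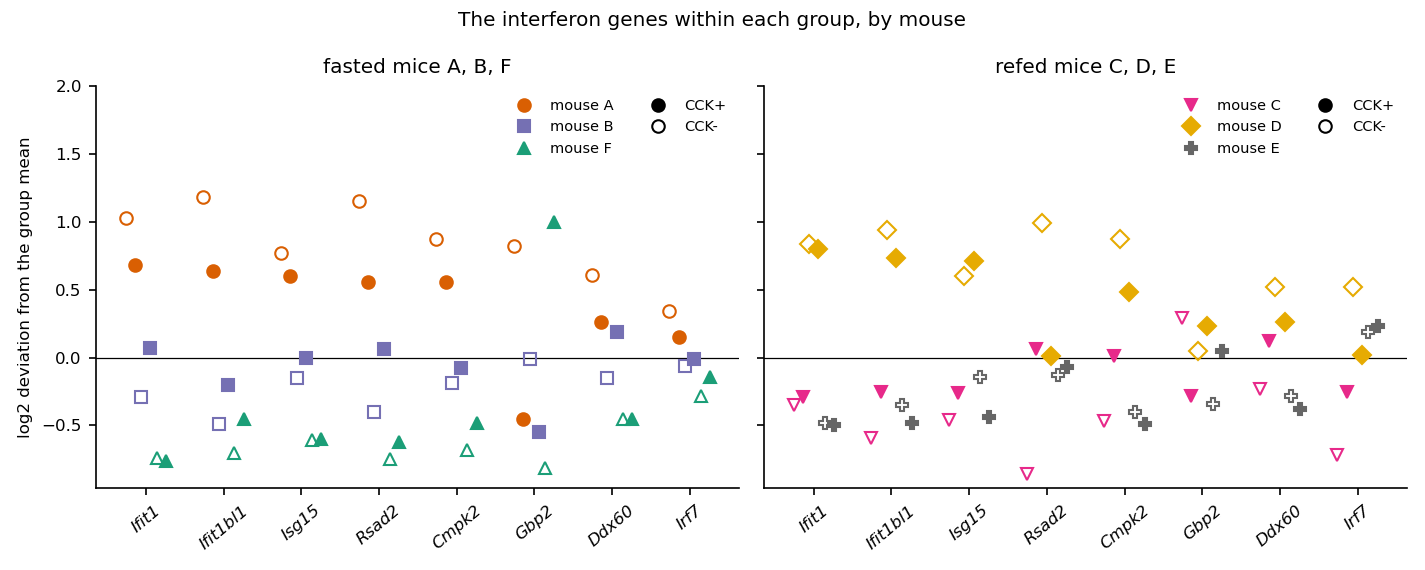
Deviation of each library from the mean of its group on the scale of log2(normalized count + 1) (y axis) for the 8 interferon genes (x axis), in fasted mice (left) and refed mice (right), with filled symbols for CCK+ and open symbols for CCK- libraries. Mouse A lies above the others in 8 of 8 genes in fasted CCK- cells, and mouse D in 7 of 8 in refed CCK- cells.

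Some lists of the pathway shared this order of mice in CCK- cells, and others did not. Of 53 antiviral effectors outside the 10 with a mean of at least 10 normalized counts, 47 (88.7%) were highest in mouse A among the fasted and 44 (83%) in mouse D among the refed CCK- libraries. In CCK+ libraries these were 24 (45.3%) and 25 (47.2%). Among 13 guanylate-binding proteins and immunity-related GTPases, mouse A was the highest for 9 and mouse D for 11 in CCK- cells, and among 11 transcription factors for 8 and 6. Among 11 receptors, kinases and inhibitors these were 3 (27.3%) and 2 (18.2%), near or below the shares of all genes. Of 21 class I and interferon gamma target genes mouse A was the highest for 9 and mouse B for 10 among the fasted, and mice D and E for 9 each among the refed CCK- libraries.

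Markers of other cell types differed among the mice too. Of 5 Paneth cell markers, 5 were highest in mouse A in fasted CCK+ cells and 5 in mouse D in both refed CCK+ and refed CCK- cells, the same mice as for the interferon genes, whereas in fasted CCK- cells 0 were highest in mouse A. Of 7 enteroendocrine markers, 6 were highest in mouse A in fasted CCK+ cells and 4 in mouse D in refed CCK+ cells. In refed CCK- cells 5 of 7 myeloid and 4 of 5 crypt markers were highest in mouse D, and in fasted CCK- cells 2 of 7 and 0 of 5 in mouse A. Of 11 lymphocyte markers, 9 were highest in mouse B among the fasted and 7 in mouse C among the refed CCK- libraries, and of 8 enterocyte markers 7 were highest in mouse B and 4 in mouse C. The part of these cells in the order of the mice was not tested.

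Gvin1 did not follow the order of the 8 interferon genes. In fasted CCK+ cells it was lowest in mouse A, where 7 of the 8 interferon genes were highest. Over the 12 libraries its Pearson correlation with the other members, on the scale of log2(normalized count + 1), ran from -0.696 (Ddx60) to 0.28 (Gvin2), and after subtraction of the group means from -0.467 (Isg15) to 0.435 (Gbp2). The genes most like Gvin1 in level were H2bc13 (0.965), Rcc1l (0.956), Lrrc4 (0.955), Dapk2 (0.955) and Mcm4 (0.934), none of them in an interferon list. After subtraction of the group means they were Pgm2, ENSMUSG00000110597, Niban1, Pou2f3 and Rdh10, at 0.961 to 0.929. By contrast, the genes most like Ifit1 after subtraction of the group means were Ifit3 (0.992), Isg15 (0.98), Oasl2 (0.978), Cmpk2 (0.968) and Ifit1bl1 (0.967). The 12 libraries come from 6 mice and share a normalization, so these values are descriptions.

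The interferon genes were divided between lower and like levels in CCK+ and CCK- cells, given here as a description. Over both states the log2 difference of CCK+ from CCK- was -1.49 for Ifit1bl1 (SE 0.35), -1.48 for Ifit1 (SE 0.34), -1.43 for Ddx60 (SE 0.21), -1.18 for Cmpk2 (SE 0.30), -0.79 for Rsad2 (SE 0.34) and -0.46 for Isg15 (SE 0.29). It was near 0 for Irf7 (0.01, SE 0.19) and Gbp2 (0.06, SE 0.39) and was 0.71 for Gvin2 (SE 0.30). For Gvin1 it was 4.61 (SE 0.27), a size that depends on the 1 added to each count, as the fasted CCK- group was at 0. Within each state the CCK+ values of Gvin1 lay above the CCK- values. They were 107 to 384 against 0 in fasted mice and 468 to 499 against 159 to 219 in refed mice. Every CCK+ library lay below every CCK- library for Ddx60, as for 5.93% of all genes, and every CCK+ library lay above every CCK- library for 0 of the 10 genes, as for 9.74% of all genes. These SEs and separations do not pair the libraries of a mouse. Within each mouse the CCK+ library lay below the CCK- library for Ifit1, Ifit1bl1, Cmpk2 and Ddx60, but not in every mouse for Isg15 and Rsad2. Gvin1 was higher in the CCK+ library of each mouse. The share of all genes with such a pattern was not counted. In this comparison 33.7% of all genes were called, 19.6% higher and 14.1% lower in CCK+ cells.

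The antiviral effectors outside the 10 were also lower in CCK+ cells as a list, with 34 of 57 called lower and 6 higher and a median of -0.72 (0.09 over all genes). Of all genes, 14.1% were called lower and 19.6% higher, the shares to set beside each list in this comparison. Ifit1bl2 (log2 difference -1.61, adjusted p = 1.38e-07), Trim30d (-1.83, adjusted p = 1.08e-06), Trim30a (-1.69, adjusted p = 7.43e-06) and Ifit3 (-1.56, adjusted p = 0.0363) were among the lower genes. The call of Ifit3 was lost in 8 of 12 fits that left out 1 library (adjusted p up to 0.138), and the calls of Ifit1bl2, Trim30d and Trim30a in 0. Isg20, an exonuclease (3.01, adjusted p = 2.02e-06), and Ifitm2, a membrane protein that blocks viral entry (2.12, adjusted p = 3.18e-07), were higher. Of the transcription factors 4 of 11 were lower and none higher, among them Irf9 (-0.91, adjusted p = 6.95e-05) and Stat2 (-0.75, adjusted p = 0.00348), which act at the ISRE. Of 12 receptors, kinases and inhibitors 6 were lower, among them Ifnlr1, a chain of the type III interferon receptor (-0.98, adjusted p = 0.000147) and Jak2 (-0.98, adjusted p = 1.18e-05). The class I list had 6 of 21 lower, with B2m at -1.30 (adjusted p = 1.09e-05), and 2 higher, against 14.1% and 19.6% of all genes.

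Of 15 guanylate-binding proteins and immunity-related GTPases 5 were higher and 3 lower in CCK+ cells, against 19.6% and 14.1% of all genes. Gbp9 (2.50, adjusted p = 8.88e-06) and Gbp8 (2.25, adjusted p = 2.36e-05) were at one end. Gbp6 (-1.45, adjusted p = 0.00271) and Igtp (-1.12, adjusted p = 0.00237) were at the other. Among the relatives of Gvin1, higher genes in CCK+ cells included Gm8995 at 1.47 (adjusted p = 3.82e-05) and Gvin-ps4 at 2.61 (adjusted p = 0.00144). Interferon gamma itself was 6.72 ± 6.23 normalized counts in fasted and 0.888 ± 0.638 in refed CCK+ cells (adjusted p = 0.202) and was listed at 0 in all CCK- libraries. Lymphocyte markers had the same direction, with 10 of 11 called higher in CCK+ cells (19.6% of all genes), and 6 of 8 enterocyte markers were called lower (14.1% of all genes). The part of these cells in the differences was not tested. After quantile normalization, which moved the median of all genes from 0.090 to -0.142, the difference of Ddx60 was -1.14, that of Gvin2 was 0.06 and that of Gbp2 was -0.68, and the share of higher genes among all calls went from 58.2% to 41.6%.

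The droplet library placed the interferon genes among the cells that descend from Neurog3+ progenitors. Of 9451 cells with more than 1000 genes and under 10% mitochondrial UMIs, 4545 had at least 500 UMIs of Zg16 per 10000 UMIs (Zg16 is a goblet cell gene), 1116 of the others had at least 500 of Cck, 2052 of the others had at least 10 of Tph1, the enzyme of serotonin synthesis, and 1738 were the rest. The median depth was 6703, 6179, 3037 and 9364 UMIs. Doublets were not removed, and 130 cells passed the limits of both Zg16 and Cck, 452 those of Zg16 and Tph1, and 268 those of Cck and Tph1. Within 10% of the Zg16 limit there were 74 cells inside and 79 outside, for Cck 12 and 15, and for Tph1 70 and 76. With 1 library there is no test, and the 95% intervals cover counting error only.

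Gvin1 and Gvin2 had almost no counted UMIs in this library. Gvin1 had 0 UMIs in the Zg16, Cck and Tph1 cells and 3 in the rest. Gvin2 had 2, 3, 1 and 13 UMIs. In the Cck cells the upper end of the interval for counted Gvin1 UMIs was 0.00522 per 10000. The bulk change could therefore not be looked for in these cells. The more distant copies of Gvin1 are not rows of this matrix, and reads that match more than one gene are not counted by the software that made it. The last base that differs between the compared transcripts of Gvin1 and Gvin2 is at position 7165 of 8795, and reads of these transcripts beyond it match both. These low counts therefore do not give the level of either gene.

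The 8 other members were all highest in the Zg16 cells, as were 9.84% of 13542 genes. Ddx60 was 2.04 UMIs per 10000 in the Zg16 cells (interval 1.99 to 2.09), 0.3 in the Cck cells (0.261 to 0.343), 0.397 in the Tph1 cells and 0.263 in the rest. Isg15 was 1.83, 0.25, 0.363 and 0.571 in the same order, and Irf7 was 1.6, 0.714, 0.636 and 0.568. Their ratios of Zg16 to Cck cells were 6.8 (interval 5.93 to 7.83), 7.3 (6.29 to 8.53) and 2.24 (2.05 to 2.46), the ratio of Irf7 being the smallest of the 8. Ifit1bl1 was 1.22, 0.266, 0.253 and 0.22, Ifit1 was 0.659, 0.228, 0.13 and 0.164, and Rsad2 was 0.751, 0.204, 0.178 and 0.146. Cmpk2 was 0.212 in the Zg16 cells and 0.0651 to 0.0901 in the other groups. Gbp2 was 0.393 in the Zg16 cells and 0.0439 in the Cck cells, a ratio of 8.96 (6.28 to 13.2) that overlapped those of Isg15 and Ddx60. Its level in the Cck cells was not above the free RNA described next, when scaled by the median marker. The sum of the 10 genes was 8.71, 2.08, 2.09 and 2.06. The last value depended on the processing and was 1.21 in cells with under 5% mitochondrial UMIs and 3.53 after each cell was thinned to 2000 UMIs, as Isg15 in the rest was 0.251 and 1.09.

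**Figure D5:**
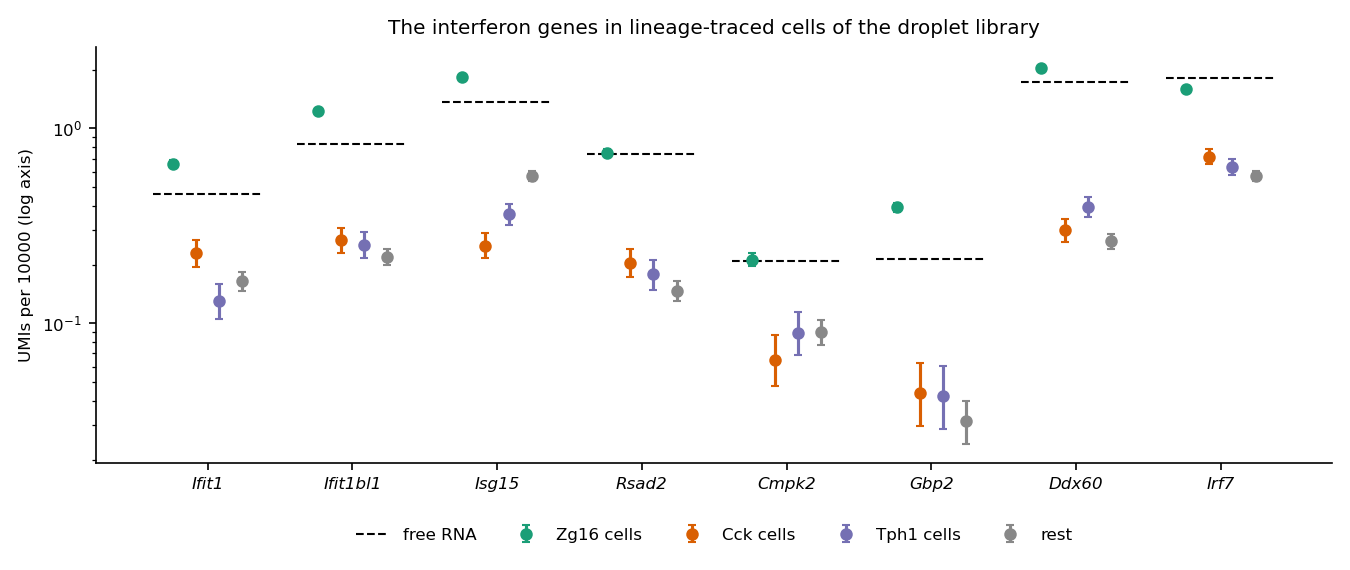
UMIs per 10000 (y axis, log scale) of the 8 interferon genes (x axis) in 4 groups of cells of the droplet library, with 95% Poisson intervals that cover counting error only and a dashed line at the level in free RNA. All 8 genes are highest in the Zg16 cells, for example 2.24 times the Cck cells for Irf7.

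Free RNA carried the same genes. In the pooled profile of barcodes with 1 to 100 UMIs the sum of the 10 genes was 7.37 UMIs per 10000, close to the Zg16 cells. Irf7 was higher in free RNA (1.82) than in the Zg16 cells (1.6), and the other interferon genes were lower. Scaled by 6 goblet markers other than Zg16, whose levels in the Cck cells were a median of 22.6% of those in free RNA (range 13.7 to 174%), free RNA would give a sum of 1.66, against 2.08 measured. At this median Ddx60 (0.388 against 0.3 measured), Isg15 (0.309 against 0.25) and Gbp2 (0.0483 against 0.0439) in the Cck cells were at or below background. At the lowest of the 6 markers free RNA would give 0.235, 0.187 and 0.0293, below the measured values of these genes. Irf7 (0.411 against 0.714) and Ifit1 (0.104 against 0.228) were above it, except at the highest of the 6 markers, where free RNA would give 3.17 and 0.804. Ifit1bl1 (0.188 against 0.266), Rsad2 (0.167 against 0.204) and Cmpk2 (0.0472 against 0.0651) were also above the median background. At the highest marker free RNA would give 1.44, 1.29 and 0.363 for these genes. The same scaling gave 1.97 in the Tph1 cells and 1.67 in the rest, against 2.09 and 2.06 measured.

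Within the Zg16 cells the interferon genes were unevenly spread. Of 4545 Zg16 cells, 399 held no UMI of the 8 genes other than Gvin1 and Gvin2. At least 10 such UMIs were held by 666 cells, with a highest value of 161, and the top 46 cells held 13.5% of these UMIs. Pairs of the genes were found in the same cells more often than independent genes would be. After each cell was thinned to 2000 UMIs, 386 Zg16 cells held Ifit1, 627 held Ifit1bl1 and 185 held both, against 53.3 if the genes were independent. Ifit1 and Isg15 were together in 226 cells against 81.1, and Ifit1 and Irf7 in 140 against 107. The excess was small for Ddx60 and Irf7 (428 against 374) and for Cmpk2 and Irf7 (55 against 49.3). The cells come from 4 pooled mice that cannot be told apart, so cells of 1 mouse may share high values, which was not tested. Cells with at least 10 UMIs of these 8 genes also held more of the other antiviral effectors, 31.2 UMIs per 10000 without Ifi27l2b, against 16.2 in cells with 1 to 9 and 13.4 in cells with 0, at median depths of 7723, 6676 and 5332 UMIs. A like set of 67 cells was found in the rest, with 33.6 against 12.3 and 12.9. Gapdh, which is not an interferon gene, was 3.16, 3.42 and 3.54 in the same 3 sets of Zg16 cells, and 10, 7.04 and 7.66 in the rest.

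Other genes of the pathway were also often highest in the Zg16 cells, against 9.84% of all genes. They were 38 of 52 antiviral effectors outside the 10 (73.1%), 7 of 11 GTPases, 5 of 10 transcription factors, 15 of 20 class I genes and 5 of 12 receptors, kinases and inhibitors. Summed, these antiviral effectors were 42 UMIs per 10000 in the Zg16 cells and 17.1, 16.9 and 18 in the Cck cells, the Tph1 cells and the rest. Free RNA held 31.5. Ifi27l2b alone gave 75517 of the 134580 antiviral UMIs in these cells. Exceptions were chosen after their values were seen. Isg20 was 0.835 UMIs per 10000 in the Cck cells and 0.0868 in the Zg16 cells, Ifi27 was 1.37 and 0.455, and Usp18, which trims Isg15 from proteins, was 0.516 and 0.24. Isg20 was also higher in CCK+ than in CCK- cells in the bulk libraries (log2 difference 3.01). Ifi27 (-0.23) and Usp18 (-0.66) had negative differences there that were not called.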

How the data were processed

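The authors trimmed the bulk reads with Trim Galore 0.6.7, quantified them with Salmon 1.6.0 against mouse transcripts (GRCm39), removed genes with almost no reads and normalized with DESeq2. The deposited values are therefore a signal, the normalized count, that the authors scaled by library and that is no longer whole (0.15% of values above 0 are whole within 0.001), so no count model was used. For the droplet library the authors deposited raw UMI counts of all barcodes from Cell Ranger 2.0.1 (mm10). The members and gene lists were chosen with earlier results of these data known.

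Log2(normalized count + 1) was fitted with limma 3.58.1 in R 4.3.3, with a trend in the variance and 1 mean for each group of 3 libraries (8 residual degrees of freedom). The p-values were adjusted by Benjamini-Hochberg over 22042 genes and called under 0.05. Standard errors are from this fit, and the fit was tested on simulated data. The named genes are, per list, comparison and direction, up to 4 called genes with the largest differences, and the 5 genes most correlated with Gvin1 among those with a mean of at least 10 normalized counts. CCK+ and CCK- libraries of the same letter come from the same mouse, and the deviations of such pairs from their group means correlated at 0.0463 to 0.065, against -0.00973 or lower for other pairs. Salmon shares reads among near-identical transcripts by estimation. Sequence overlap was measured as shared words of 31 bases in annotated transcripts of GRCm38. Droplet levels are UMIs per 10000 with exact 95% Poisson intervals.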

Additional observations from a re-analysis of the deposited data

Results flagged for a closer look

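Over 22042 genes the interaction term of limma marked 1 gene, Gvin1, for a refeeding difference that was unequal in CCK+ and CCK- cells. Gvin1 had been chosen from these same values, so this restates the choice and is given as a description. It was listed at 0 in the 3 fasted CCK- libraries, and with Gvin2 added to it no gene was called.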

How the results depend on the processing

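No called list gene changed direction under any alternative. Uncalled differences near 0 did change sign. Under quantile normalization that of Gbp2 between CCK+ and CCK- cells went from 0.06 to -0.68. With a library left out, the refeeding difference in CCK- cells turned from -0.10 to 0.34 for Cmpk2 and from -0.11 to 0.27 for Isg15 (without mouse A), from 0.02 to -0.40 for Ifit1 and from 0.08 to -0.41 for Rsad2 (without mouse D), and from -0.22 to 0.11 for Gvin2 (without mouse F). In CCK+ cells that of Rsad2 turned from 0.17 to -0.13 (without mouse F). Irf7 between CCK+ and CCK- cells went from 0.01 to as low as -0.17 (without the CCK- library of mouse C), and the CCK- median of the antiviral effectors from -0.20 to 0.07 (without the CCK- library of mouse A). After quantile normalization the calls for refed against fasted mice went from 561 to 852 in CCK+ cells and from 272 to 168 in CCK- cells, the calls of an unequal change from 1 to 2, the antiviral effectors lower in refed CCK+ cells from 5 to 9, and the receptors, kinases and inhibitors from 2 to 4. With only the libraries compared, these were 0 in CCK+ cells by limma (3190 at an unadjusted p under 0.05), 63 in CCK- cells, 0 antiviral effectors and 0 receptors, kinases and inhibitors (21 and 7 at an unadjusted p under 0.05). With a pseudocount of 10 the unequal change was called by limma in 0 genes (1490 at an unadjusted p under 0.05), and with Gvin1 added to Gvin2, or to all its copies, in 0 and 0 (1378 and 1376 at an unadjusted p under 0.05). These sums were chosen after seeing the data. The causes of these changes were not tested.

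With the mouse as a replicate block (consensus correlation 0.0962) the counts were 576, 283, 7881 and 1 for refeeding in CCK+ cells, in CCK- cells, for CCK+ against CCK- cells and for the unequal change, and no refeeding call of a member or list gene changed.

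Leaving out 1 library or mouse at a time gave 49 to 876 calls for CCK+ refeeding, 44 to 268 for CCK- refeeding, 5706 to 7618 for CCK+ against CCK- cells, and 0 to 8 for the unequal change. The antiviral effectors lower in refed mice were 0 to 5 in CCK+ and 0 to 0 in CCK- cells, those lower in CCK+ than in CCK- cells were 21 to 32 (34 with all libraries), and the receptors, kinases and inhibitors lower in refed CCK+ cells were 0 to 3. For CCK+ refeeding the count was 876 without the CCK+ library of mouse A, 193 without B, 351 without F, 103 without D and 183 without E, and 333 without the CCK- library of D. For CCK- refeeding it was 101, 92, 144, 119, 79 and 89 without the CCK- library of A, B, F, C, D and E, and 172, 143, 107 and 165 without the CCK+ library of F, C, D and E. The unequal change was called in 0 genes without mouse B or C (1335 and 1590 at an unadjusted p under 0.05) and in 8 without mouse A.

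The summed level of the 10 genes in the droplet library, in UMIs per 10000, was 9.41, 8.17, 8.23, 9.08 and 9.08 in Zg16 cells with more than 500 or 1500 genes, halved limits, doubled limits and thinned cells. It was 1.82 in Cck cells with halved limits, 2.29, 1.95, 1.59 and 2.34 in Tph1 cells with more than 1500 genes, under 5% mitochondrial UMIs, halved and doubled limits, and 2.17, 1.86, 1.21, 1.83, 2.62 and 3.53 in the rest with more than 500 or 1500 genes, under 5% mitochondrial UMIs, halved limits, doubled limits and thinned cells. Of the other alternatives, 821 of 993 for list genes kept their call and 172 lost it, and 656 of 663 bulk values and 167 of 240 droplet values of the members moved by less than their spread. With 3 libraries a group and 1 droplet library, small differences could not be resolved.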
